A study of Mus musculus with 36 samples.

Results

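The genes described here are the mouse liver cytochrome P450 enzymes of subfamilies Cyp2a, Cyp2b, Cyp2c, Cyp2d, Cyp2f, Cyp2g and Cyp2j. They were chosen by name: each gene whose array probe sets carry a single symbol of these subfamilies, with Cyp2e1 left out. This gave 42 of the 23102 genes with a value: 4 of Cyp2a, 5 of Cyp2b, 15 of Cyp2c, 9 of Cyp2d, 1 each of Cyp2f and Cyp2g, and 7 of Cyp2j. Cyp2d13 is a transcribed pseudogene in RefSeq and was kept.

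Liver RNA was hybridised to 36 Affymetrix whole-transcript arrays, 1 per library. Per the labels, the mice were female C57BL/6, aged 10 to 12 weeks, and either lacked the matrix protein dermatopontin (Dpt-null, KO) or were their wild-type (WT) littermates. Carbon tetrachloride (CCl4), a liver toxin, was given under the skin 3 times a week in a volume of 0.1 ml/kg for 8 weeks, at 2% in the first week, 4%, 5% and 6% in the next weeks and 8% in weeks 5 to 8, and control mice received olive oil. Livers were removed 24 hours after the last injection. The groups held 8 WT oil, 10 KO oil, 9 WT CCl4 and 9 KO CCl4 libraries, and the labels do not say how the Dpt allele was made.

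Cytochrome P450 enzymes are haem proteins of the endoplasmic reticulum that add oxygen to drugs, steroids and fatty acids with electrons passed on by P450 reductase. Family 2 is large in the mouse because its subfamilies lie in clusters of duplicated genes, and most of its liver members are made by hepatocytes. Several of them are known to differ between the sexes under growth hormone, with Cyp2b9, Cyp2b13 and Cyp2a4 classed as female genes of mouse liver and Cyp2d9 as a male gene. CCl4 itself is turned into its toxic radical mainly by Cyp2e1, which lies outside the subfamilies described here.

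Promoters of the clustered genes show how alike neighbours are. RefSeq promoter sequences (build GRCm38.p6, 300 bases around the start of transcription) matched 35 of the 42 genes, with 37 promoters in all. Cyp2b9 (chr7:26173159-26173458, plus strand) and Cyp2b13 (chr7:26061245-26061544, plus strand) are shown because they varied together across the libraries, and Cyp2c67 (chr19:39648993-39649292, minus strand), Cyp2c69 (chr19:39886720-39887019, minus strand) and Cyp2c70 (chr19:40187237-40187536, minus strand) because they fell after CCl4 in both genotypes over all libraries and hold the letters of a hepatocyte factor's motif. Capitals mark CAAAGTCCA, a form of the motif of HNF4A, a nuclear receptor of hepatocytes, and TTGCNNAA, a form of the C/EBP motif, each searched on both strands.
Cyp2b9: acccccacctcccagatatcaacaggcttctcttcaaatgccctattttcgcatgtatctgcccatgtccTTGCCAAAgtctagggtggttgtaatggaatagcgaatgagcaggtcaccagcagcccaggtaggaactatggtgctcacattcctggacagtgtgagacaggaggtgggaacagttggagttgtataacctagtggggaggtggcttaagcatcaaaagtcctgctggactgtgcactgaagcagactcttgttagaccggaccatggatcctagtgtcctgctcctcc
Cyp2b13: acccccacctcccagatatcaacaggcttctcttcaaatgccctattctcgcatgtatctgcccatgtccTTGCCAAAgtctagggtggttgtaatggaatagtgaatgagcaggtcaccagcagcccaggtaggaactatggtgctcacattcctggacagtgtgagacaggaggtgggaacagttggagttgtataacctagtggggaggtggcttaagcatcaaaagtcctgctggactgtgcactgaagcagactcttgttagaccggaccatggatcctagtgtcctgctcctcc
Cyp2c67: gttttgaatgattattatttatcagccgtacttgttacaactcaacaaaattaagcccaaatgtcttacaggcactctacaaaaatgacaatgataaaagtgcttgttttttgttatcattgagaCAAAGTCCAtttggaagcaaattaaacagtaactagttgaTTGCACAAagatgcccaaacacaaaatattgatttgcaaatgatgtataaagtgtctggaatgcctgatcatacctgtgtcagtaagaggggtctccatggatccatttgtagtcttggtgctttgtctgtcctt
Cyp2c69: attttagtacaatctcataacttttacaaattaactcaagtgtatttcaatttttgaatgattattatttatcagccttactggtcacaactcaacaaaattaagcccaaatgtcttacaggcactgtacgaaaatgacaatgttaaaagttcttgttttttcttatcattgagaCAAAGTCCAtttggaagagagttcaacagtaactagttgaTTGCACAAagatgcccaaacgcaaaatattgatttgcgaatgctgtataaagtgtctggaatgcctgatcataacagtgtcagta
Cyp2c70: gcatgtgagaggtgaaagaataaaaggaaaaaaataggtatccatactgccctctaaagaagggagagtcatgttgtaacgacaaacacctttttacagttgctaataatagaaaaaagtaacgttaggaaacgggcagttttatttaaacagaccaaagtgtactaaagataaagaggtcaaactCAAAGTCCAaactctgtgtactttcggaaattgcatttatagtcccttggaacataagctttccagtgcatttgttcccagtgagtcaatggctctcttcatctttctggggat
The Cyp2b9 and Cyp2b13 promoters shared 298 of 300 aligned bases, and both carried the C/EBP letters 180 bases before the start. Cyp2b10, in the same subfamily, shared 229 of 300 bases with each of them. The HNF4A letters began 125 bases before the start in Cyp2c67, 75 in Cyp2c69 and 64 in Cyp2c70. They were in 6 of the 35 matched genes, all of Cyp2c (Cyp2c40, Cyp2c65, Cyp2c67, Cyp2c68, Cyp2c69 and Cyp2c70), or 16.2% of the 37 promoters, against 0.475% of all 32851 promoters. These promoters are not independent, as Cyp2c69 and Cyp2c68 shared 277 of 300 bases. The C/EBP letters were in 13 of the 35 genes (35.1% of the promoters, against 10.8% of all). The STAT5 motif TTCNNNGAA, bound by the factor that growth hormone activates, was in 2 of the 35, Cyp2j11 and Cyp2j12 (5.41%, against 8.3% of all). A match describes the letters of this window and is not a measured binding site.

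Values are log2 signals made by the authors with RMA, averaged over a gene's probe sets (283 for the 42 genes), and a difference of 1 is a doubling of signal. Levels of different genes are not compared, since each has its own probes. Of the 42 genes, 30 had a mean above the median of all gene means and 12 did not, and no gene was left out of the tests. Near-identical copies can share probe signal, so a value of 1 paralog may hold part of another's. Tests were limma fits of the 4 group means over all 23102 genes, and a gene was called at a Benjamini-Hochberg adjusted p under 0.05 over all genes. The labels do not say beyond naming littermates that each library was a separate mouse, so p-values measure the spread between libraries.

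Some libraries stood apart before any comparison. All 3 measured Y-linked genes were higher in 6 oil libraries (WT oil replicates 1, 2 and 3, KO oil replicates 1, 3 and 4) than in the other 30, with mean levels of 6.09 to 6.40 against 2.34 to 3.06, and Xist was lower (2.94 to 4.45 against 9.29 to 10.29), although every library is labelled female. All 9 measured hepatocyte markers were lowest in WT CCl4 replicate 3 and KO CCl4 replicate 5 (mean 8.46 and 8.27, against 10.93 to 11.37 elsewhere). All 8 skeletal muscle markers were highest in the first of these (mean 10.00) and all 7 adipocyte markers in the second (mean 9.06). Dpt was 5.59 to 6.48 in WT oil, 7.48 to 10.12 in 8 of 9 WT CCl4 and 3.00 to 3.87 in 18 of 19 KO libraries, but 7.40 in KO oil replicate 10 and 3.18 in WT CCl4 replicate 1. The markers of these last 2 libraries also lay outside the range of their treatment: the macrophage mean was 8.10 in the library labelled KO oil replicate 10 against 5.02 to 5.44 in the other oil libraries, and 6.18 in the library labelled WT CCl4 replicate 1 against 6.92 to 8.97 in the other CCl4 libraries. The matrix markers likewise had means of 7.85 against 4.58 to 5.14 in oil, and 5.92 against 6.80 to 8.35 after CCl4. Pancreatic markers reached a mean of 11.56 in WT CCl4 replicate 4. The 7 libraries with pancreatic, muscle or adipocyte markers included WT CCl4 replicates 3, 4, 5, 8 and 9. Among KO libraries the adipocyte mean was highest in KO CCl4 replicate 5 and the muscle mean in KO oil replicate 10 (5.97). Leaving the 7 out keeps WT CCl4 replicates 1, 2, 6 and 7, of which replicate 1 goes against its label. Results are given over all 36 libraries and without the 10 named by the Y-linked, hepatocyte and label checks. That leaves 5, 6, 7 and 8 libraries in the WT oil, KO oil, WT CCl4 and KO CCl4 groups. This smaller set still holds WT CCl4 replicates 4, 5, 8 and 9, which are among the 7 with markers of other tissues.

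**Figure D1:**
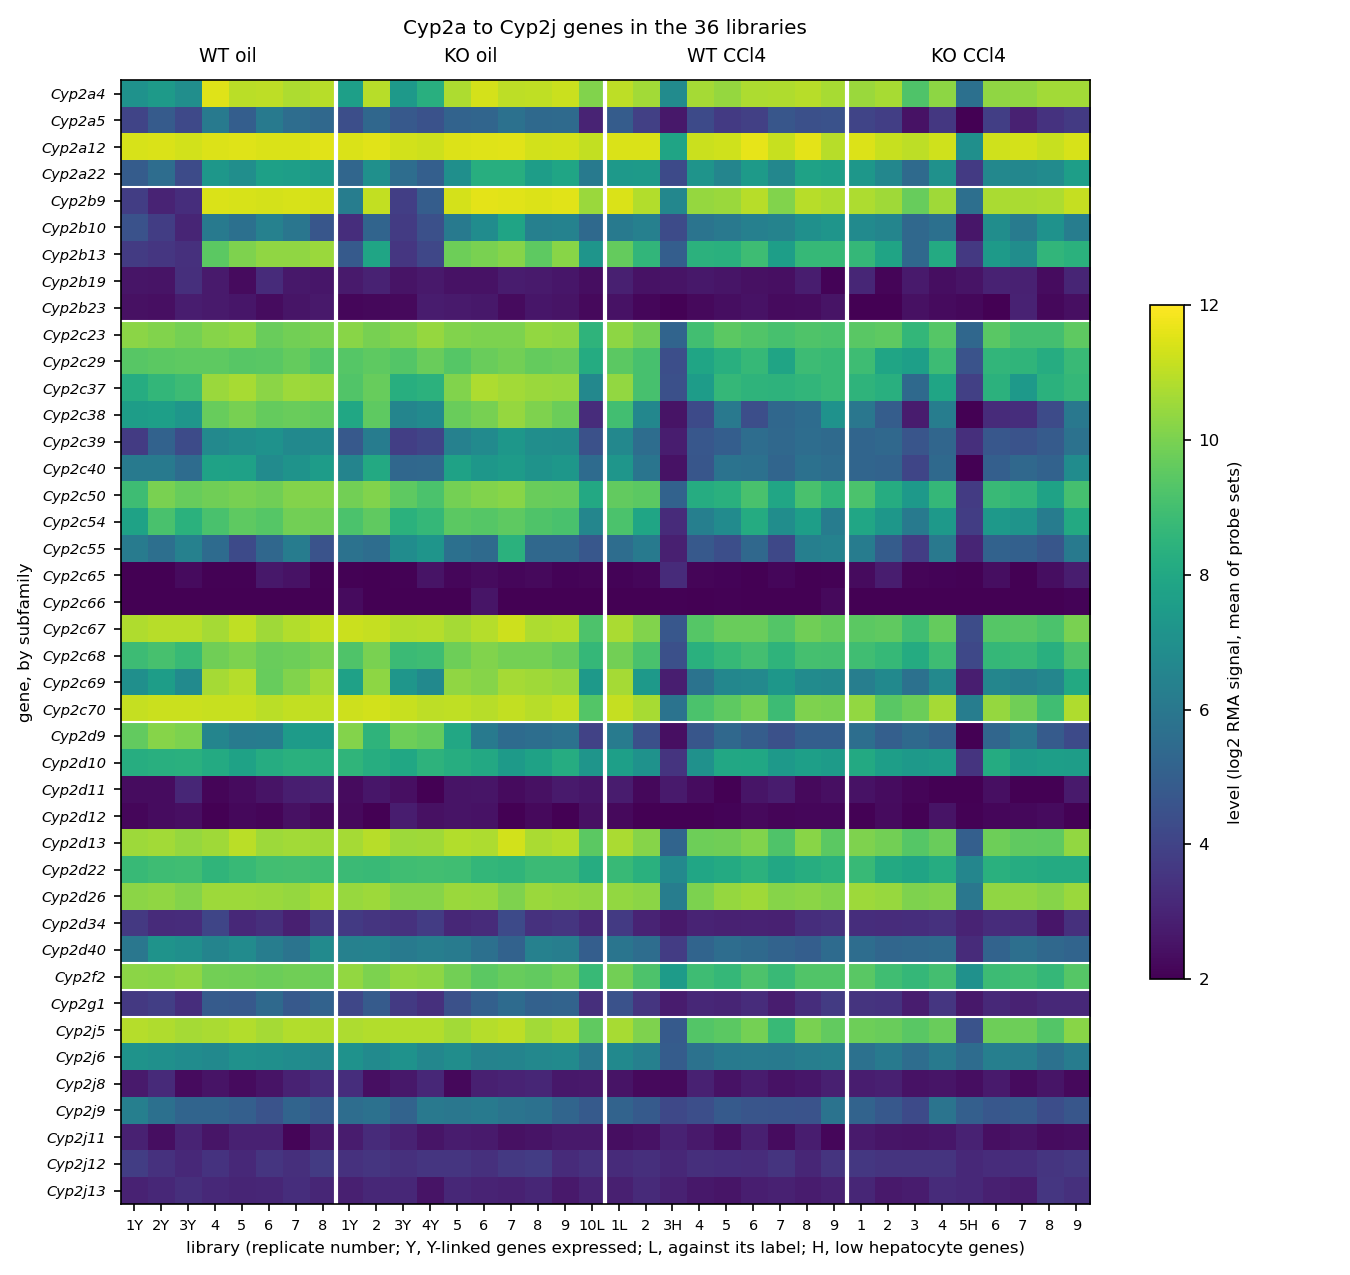
Level of each of the 42 genes (rows, by subfamily) in each of the 36 libraries (columns, by group), in log2 RMA signal as colour; Y, L and H mark libraries that express Y-linked genes, go against their label or have low hepatocyte genes. Cyp2b9, Cyp2b13 and Cyp2a4 are dark in the 6 Y columns, Cyp2d9 is bright there, and most genes are dark in the 2 H columns.

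The first comparison asked how these enzymes differ between CCl4 and oil within a genotype. In WT liver 17 of the 42 genes fell and 0 rose, against a background of 11.3% of all genes called lower and 13.2% called higher. In KO liver 19 of 42 fell and 0 rose, against 9.91% and 13.4%. The median difference over the 42 was -0.74 in WT and -0.79 in KO, against -0.04 in each for all genes. The calls shared 16 genes, 94.1% of the WT and 84.2% of the KO calls. Cyp2j13 was called in WT alone, and Cyp2c37, Cyp2d13 and Cyp2j9 in KO alone, but the interaction was called for none of them. The CCl4 and oil groups overlapped for all 42 genes in each genotype, while 0.853% of all genes in WT and 0.113% in KO lay lower without overlap. Without the 10 libraries 24 genes fell in WT and 26 in KO, against 10.7% and 12.1% of all genes called lower. None of the 42 rose in either, against 13.4% and 15% called higher, and 23 falls were shared. In those libraries 22 genes in WT lay lower after CCl4 with no overlap between the groups, against 4.67% of all genes. In KO 19 did, against 4.35%. KO oil replicate 10 and WT CCl4 replicate 1 were set aside partly for marker levels outside the range of their treatment. Leaving them out can itself part the oil and CCl4 groups, so counts and p-values without the 10 are no separate test of the falls. Without the 6 libraries with Y-linked genes 12 fell in WT and 13 in KO (background 6.31% and 6.2%), and without the 7 libraries with markers of other tissues 13 and 22 (background 5.53% and 13.7%). In whole liver, fewer hepatocytes and less RNA per hepatocyte cannot be told apart. In the libraries left without the 10, the median difference of the hepatocyte markers was -0.12 in WT (1 of 9 rose and 4 fell) and -0.07 in KO (1 rose and 2 fell). Of the 10, WT CCl4 replicate 3 and KO CCl4 replicate 5 were set aside for low values of these same markers. These differences therefore cannot show how far hepatocyte content differs after CCl4. The 11 markers of hepatocytes around the central vein, a zone that CCl4 injures, had a median of -1.39 in WT and -1.17 in KO, with 8 called lower in each. The mean of 10 markers of hepatocytes around the portal vein was lower too. Over all libraries its group medians were 9.23 in WT oil, 8.70 in WT CCl4, 9.34 in KO oil and 8.57 in KO CCl4. The mean of the central vein markers was at 8.51, 7.06, 8.54 and 7.16 in the same order. The part of these markers in the falls was not tested. The WT count rested on single libraries: it was 9 without WT oil replicate 4 or WT CCl4 replicate 3, 10 without WT oil replicate 6 or 8, and 11 without WT oil replicate 5 or 7 or WT CCl4 replicate 7.

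**Figure D2:**
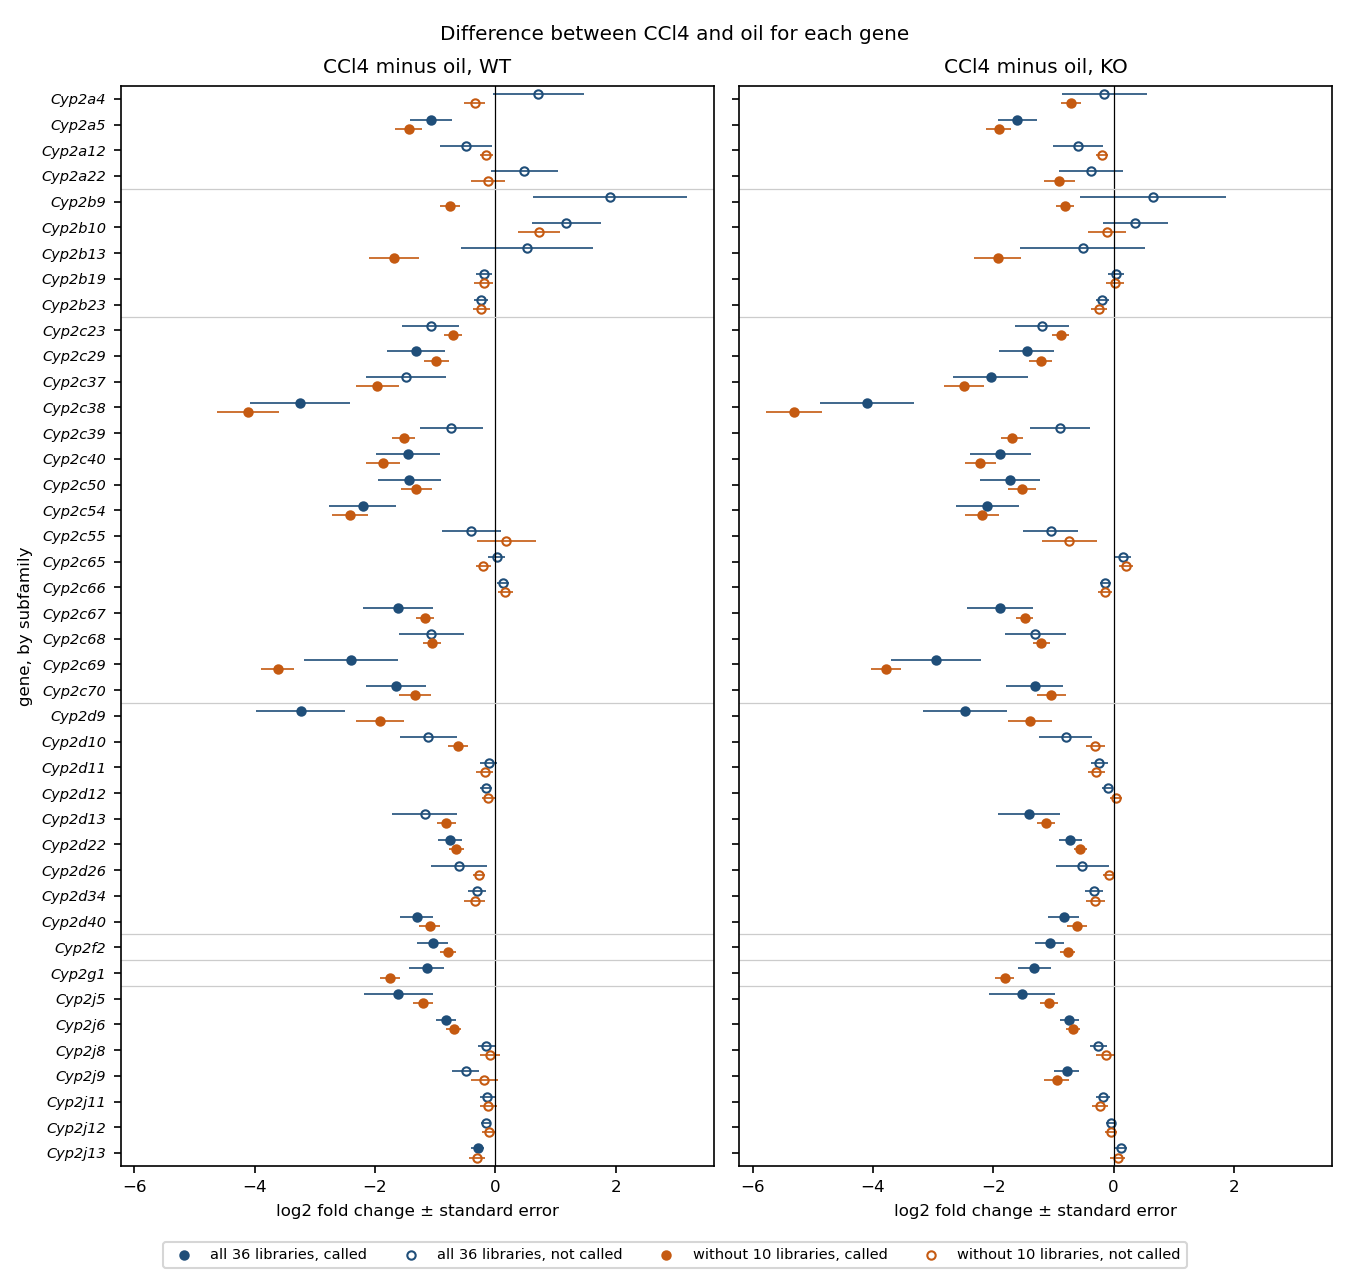
Difference between CCl4 and oil for each gene in WT (left) and KO (right), in log2 units with its standard error; blue is the fit of all 36 libraries, orange the fit without 10 libraries, and filled points were called. Cyp2c38 and Cyp2c69 lie far to the left in both genotypes. Among the genes that change side when the 10 libraries are left out are Cyp2b9 in both genotypes and Cyp2b13, Cyp2a4 and Cyp2a22 in WT.

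Cyp2c, the subfamily of arachidonic acid epoxygenases and steroid and drug hydroxylases, held more of the falls than any other subfamily: 8 of its 15 genes fell in WT and 9 in KO, with median differences of -1.43 and -1.44. Cyp2c38 had the most negative difference of the 42. Its levels were 7.26 to 9.94 (median 9.65) in WT oil and 2.52 to 8.99 (median 5.54) in WT CCl4, and 3.25 to 10.41 (median 9.61) in KO oil and 1.96 to 6.24 (median 4.27) in KO CCl4. The groups overlapped through the libraries that go against their labels: WT CCl4 replicate 1 was the high value of its group and KO oil replicate 10 the low value of its own, and the next values were 7.11 and 6.57. The log2 difference was -3.24 ± 0.83 (SE; limma adjusted p = 0.0045) in WT, with 8 of 9 CCl4 libraries below the oil mean, and -4.10 ± 0.78 (adjusted p = 0.000178) in KO, with 9 of 9 below. Without the 10 libraries it was -4.11 (adjusted p = 5.09e-07) and -5.31 (adjusted p = 6.04e-10).

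Cyp2c69 was 6.80 to 10.87 (median 9.91) in WT oil and 2.85 to 10.66 (median 6.70) in WT CCl4, and 6.75 to 10.65 (median 10.24) in KO oil and 2.83 to 8.06 (median 6.60) in KO CCl4. In the oil groups the low values were those of the 6 libraries with Y-linked genes, at 6.75 to 7.72, and KO oil replicate 10, at 7.39. It fell by 2.40 ± 0.79 in WT (limma adjusted p = 0.0245) and by 2.95 ± 0.75 in KO (adjusted p = 0.00334) on the log2 scale, and by 3.62 (adjusted p = 4.41e-11) and 3.78 (adjusted p = 1.6e-12) without the 10 libraries. The WT call was lost, with adjusted p between 0.0511 and 0.061, when WT oil replicate 4, 5 or 8 or WT CCl4 replicate 3 was left out, and without the 7 libraries with markers of other tissues (-1.14, adjusted p = 0.387). That last setting left WT CCl4 replicates 1, 2, 6 and 7, at 10.66, 7.42, 6.70 and 7.31, and replicate 1 goes against its label.

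Cyp2c54 was 7.77 to 9.85 (median 9.25) in WT oil and 3.22 to 9.17 (median 6.90) in WT CCl4, and 6.61 to 9.56 (median 9.20) in KO oil and 3.81 to 8.06 (median 7.28) in KO CCl4. It fell by 2.21 ± 0.56 (limma adjusted p = 0.00417) and by 2.10 ± 0.53 (adjusted p = 0.0032) on the log2 scale, and all 5 of its probe sets were lower after CCl4 in each genotype. Cyp2c70, an enzyme that makes the muricholic bile acids of mice, was 10.95 to 11.20 (median 11.13) in WT oil and 5.79 to 11.11 (median 9.91) in WT CCl4, and 9.33 to 11.31 (median 11.05) in KO oil and 6.22 to 10.80 (median 9.82) in KO CCl4. The oil values were tight apart from KO oil replicate 10, and the CCl4 values were spread out. It fell by 1.65 ± 0.50 in WT (adjusted p = 0.0152) and by 1.31 ± 0.47 in KO (adjusted p = 0.0411), and without the 10 libraries by 1.33 and 1.04. Both calls were lost without the 6 libraries with Y-linked genes (-1.62, adjusted p = 0.0788, and -1.21, adjusted p = 0.149).

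The other calls of Cyp2c in both genotypes were Cyp2c29, Cyp2c40, Cyp2c50 and Cyp2c67, with WT differences of -1.32, -1.45, -1.43 and -1.62. Without the 6 libraries with Y-linked genes Cyp2c29 (limma adjusted p = 0.138 in WT and 0.0729 in KO) and Cyp2c67 (0.136 and 0.0619) passed in neither genotype, and Cyp2c50 passed in KO but not in WT (0.0933). Without the 7 libraries with markers of other tissues, which leaves WT CCl4 replicates 1, 2, 6 and 7, Cyp2c40 (0.294) and Cyp2c50 (0.065) did not pass in WT. WT CCl4 replicate 1, which goes against its label, was the highest of its group for both genes. Cyp2c37, an epoxygenase of arachidonic acid, was at -1.49 in WT (adjusted p = 0.0961) and -2.05 in KO (adjusted p = 0.015). Cyp2c23, the gene long called Cyp2c44, was at -1.07 and -1.19 and passed in neither fit of all libraries (adjusted p = 0.0962 and 0.0528), but in both without the 10 (-0.70 and -0.88). Cyp2c37, Cyp2c39 and Cyp2c68 also passed in both genotypes without the 10. Cyp2c37 and Cyp2c39 did so without the 6 libraries with Y-linked genes as well. Cyp2c55, Cyp2c65 and Cyp2c66 passed in no fit of either set, and the medians of Cyp2c65 and Cyp2c66 were 1.76 to 2.28 in all 4 groups.

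Of the 9 Cyp2d genes, relatives of the human debrisoquine hydroxylase, 3 fell in WT and 4 in KO (median differences -0.76 and -0.72). Cyp2d9, a steroid hydroxylase of male mouse liver, was 6.17 to 10.19 (median 7.47) in WT oil and 2.41 to 6.17 (median 4.97) in WT CCl4, and 3.98 to 10.15 (median 7.03) in KO oil and 1.98 to 5.92 (median 5.10) in KO CCl4. The high oil values, 9.60 to 10.19, were those of the 6 libraries with Y-linked genes. It fell by 3.23 ± 0.74 in WT (limma adjusted p = 0.00176) and by 2.47 ± 0.70 in KO (adjusted p = 0.00872). Without the 6 libraries it was at -2.05 (adjusted p = 0.0241) and -1.37 (adjusted p = 0.0894), and without the 10 at -1.92 (adjusted p = 0.00059) and -1.39 (adjusted p = 0.0048).

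Cyp2d40 was 5.85 to 7.13 (median 6.65) in WT oil and 3.77 to 5.87 (median 5.42) in WT CCl4. Its WT groups overlapped by 0.02 at most, and it fell by 1.31 ± 0.28 (limma adjusted p = 0.000878) in WT and by 0.83 ± 0.26 (adjusted p = 0.0185) in KO, a call lost without KO CCl4 replicate 5 (adjusted p = 0.0511), without the 6 libraries with Y-linked genes (adjusted p = 0.102) and with either other summary of its probe sets (adjusted p = 0.0707 and 0.075). With the median of its probe sets the WT call was lost too (adjusted p = 0.06). Cyp2d22, often taken as the mouse counterpart of the human enzyme, fell by 0.76 ± 0.20 and 0.72 ± 0.19 (adjusted p = 0.00703 and 0.00551), and without the 6 libraries with Y-linked genes the KO value was -0.65 (adjusted p = 0.0508). Cyp2d13 was at -1.17 in WT (adjusted p = 0.109) and fell by 1.40 ± 0.51 in KO (adjusted p = 0.0429). That call was lost in 12 of the 36 fits that left out 1 library; without KO CCl4 replicate 5 the value was -0.88 (adjusted p = 0.117), without the 6 with Y-linked genes it was -1.44 (adjusted p = 0.112), and without the 10 libraries Cyp2d13 fell in both genotypes, by 0.81 and 1.12. Cyp2d10 passed without the 10 libraries in WT, and Cyp2d11, Cyp2d12 and Cyp2d34 passed in none. Cyp2d26 passed in neither genotype with or without the 10 libraries; its medians were 10.45, 10.42, 10.25 and 10.36 in WT oil, KO oil, WT CCl4 and KO CCl4.

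Cyp2a genes code for coumarin and steroid hydroxylases. Only Cyp2a5, the coumarin 7-hydroxylase, fell in the fit of all libraries. It was 4.05 to 6.14 (median 5.18) in WT oil and 2.64 to 4.91 (median 4.23) in WT CCl4, and 3.00 to 5.73 (median 5.21) in KO oil and 1.83 to 4.04 (median 3.63) in KO CCl4. KO oil replicate 10 was alone among the KO oil libraries in lying below the KO CCl4 maximum. The difference was -1.06 ± 0.35 in WT (limma adjusted p = 0.0242) and -1.60 ± 0.33 in KO (adjusted p = 0.00042), with 9 of 9 CCl4 libraries below the oil mean in each, and the WT call was lost without WT oil replicate 4 or 6 or WT CCl4 replicate 3 (adjusted p = 0.0583 to 0.061). Cyp2a12, a bile acid and steroid hydroxylase, passed in no fit given here: its medians were 11.42, 11.39, 11.26 and 11.28 in WT oil, KO oil, WT CCl4 and KO CCl4. Cyp2a4, the testosterone 15-alpha-hydroxylase, and Cyp2a22 passed without the 10 libraries in KO (-0.71 and -0.90) and not in WT, and the interaction was called for neither. Over all libraries they were at 0.72 and 0.48 in WT and -0.15 and -0.37 in KO, and neither passed.

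Cyp2f2, a naphthalene-activating enzyme, was 9.77 to 10.36 (median 9.86) in WT oil and 7.47 to 9.87 (median 9.20) in WT CCl4, and 8.75 to 10.39 (median 9.84) in KO oil and 7.07 to 9.44 (median 8.93) in KO CCl4. Its highest oil values, 10.24 to 10.39, were those of the 6 libraries with Y-linked genes. It fell by 1.04 ± 0.26 in WT (limma adjusted p = 0.00375) and by 1.06 ± 0.25 in KO (adjusted p = 0.00143), and without the 6 libraries the WT value was -0.86 (adjusted p = 0.0507). Cyp2g1, best known from olfactory mucosa, was 3.32 to 5.44 (median 4.80) in WT oil and 2.78 to 4.52 (median 3.28) in WT CCl4, and 3.36 to 5.51 (median 4.68) in KO oil and 2.63 to 3.60 (median 3.17) in KO CCl4. It fell by 1.14 ± 0.29 (adjusted p = 0.00485) and by 1.32 ± 0.28 (adjusted p = 0.000563), and without the 10 libraries by 1.75 and 1.81, but the WT call was lost without the 7 libraries with markers of other tissues (adjusted p = 0.0723). That setting keeps WT CCl4 replicate 1, which goes against its label and had the highest Cyp2g1 level of its group, 4.52. The low oil values of Cyp2g1, 3.32 to 4.13, were those of the 6 libraries with Y-linked genes, beside KO oil replicate 10 at 3.36.

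Cyp2j genes code for fatty acid epoxygenases, and 3 of the 7 fell in each genotype. Cyp2j5 was 10.67 to 10.90 (median 10.80) in WT oil and 4.82 to 10.69 (median 9.59) in WT CCl4, and 9.57 to 11.01 (median 10.81) in KO oil and 4.57 to 10.23 (median 9.73) in KO CCl4. The lowest CCl4 values were those of the 2 libraries with low hepatocyte genes, and the next lowest were 8.74 and 9.34. It fell by 1.61 ± 0.57 (limma adjusted p = 0.0375) and by 1.52 ± 0.54 (adjusted p = 0.0375), and without the 10 libraries by 1.20 (adjusted p = 2.26e-06) and 1.07 (adjusted p = 2.23e-06). Leaving out 1 library at a time ended the WT call in 9 of 36 fits and the KO call in 8; without WT CCl4 replicate 3 the WT value was -1.06 (adjusted p = 0.0871), and without KO CCl4 replicate 5 the KO value was -0.95 (adjusted p = 0.0979). Both calls were also lost without the 6 libraries with Y-linked genes (adjusted p = 0.127 in each).

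Cyp2j6 was 6.66 to 7.13 (median 6.93) in WT oil and 4.92 to 6.76 (median 6.15) in WT CCl4, and 6.04 to 7.08 (median 6.71) in KO oil and 5.55 to 6.31 (median 6.10) in KO CCl4. It fell by 0.82 ± 0.16 (limma adjusted p = 0.00051) and by 0.74 ± 0.16 (adjusted p = 0.000565), calls that held in every setting tried. Cyp2j9 fell in KO, by 0.78 ± 0.21 (adjusted p = 0.00542), and was at -0.49 in WT (adjusted p = 0.099). Its medians were 5.22, 5.74, 4.64 and 4.77 in WT oil, KO oil, WT CCl4 and KO CCl4. Cyp2j13 fell by 0.29 ± 0.11 in WT (adjusted p = 0.0456) and was at 0.12 in KO (adjusted p = 0.423); its WT call was lost in 12 of 36 fits that left out 1 library (adjusted p up to 0.0919) and without the 10 libraries (adjusted p = 0.106). Cyp2j8, Cyp2j11 and Cyp2j12 passed in none.

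**Figure D3:**
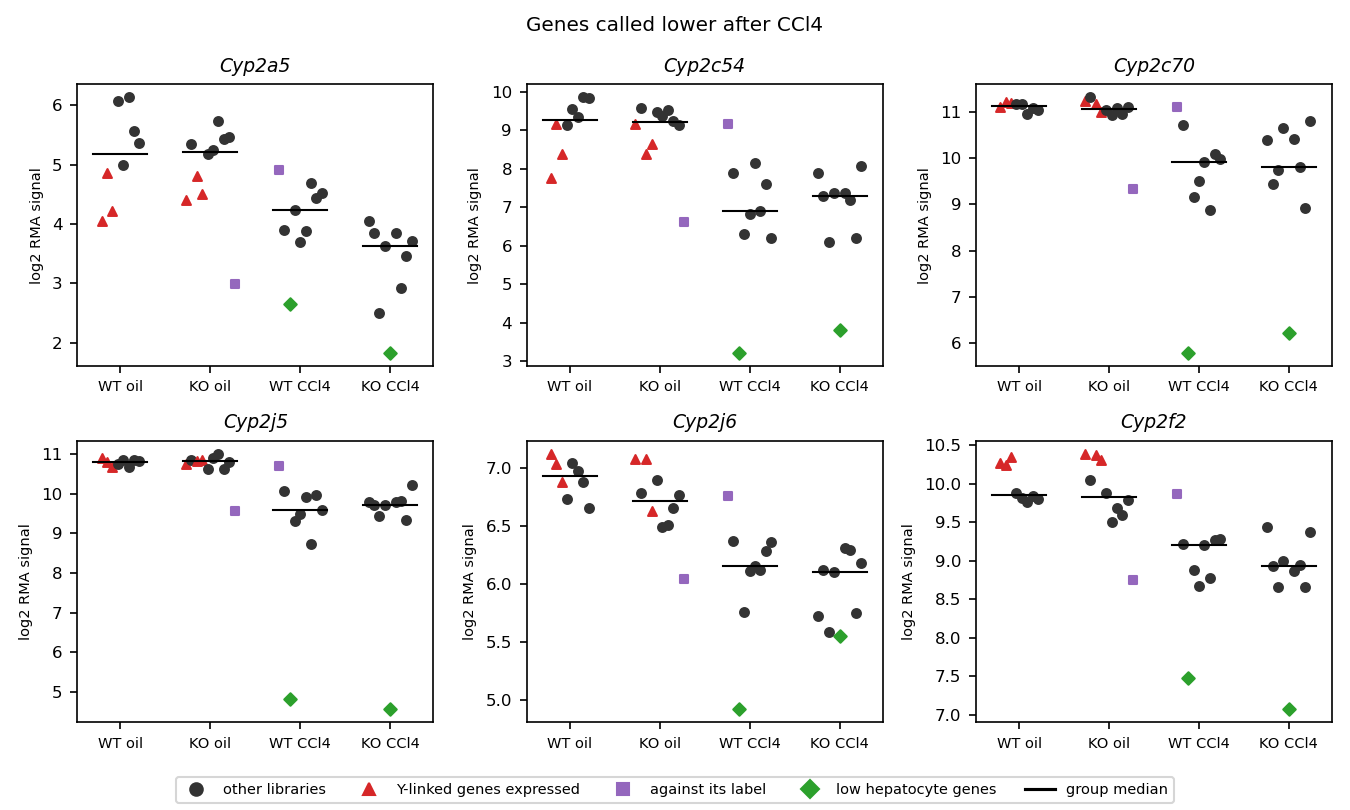
Level (log2 RMA signal, a separate axis for each gene) of 6 genes called lower after CCl4 in both genotypes, with 1 point per library and the group median as a line; symbols mark libraries that express Y-linked genes, go against their label or have low hepatocyte genes. For Cyp2c70 and Cyp2j5 the 2 libraries with low hepatocyte genes lie far below the rest, and for Cyp2j6 the WT CCl4 value above 6.66 and the KO oil value below 6.31 are those of the libraries that go against their labels.

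Cyp2b genes, best known as targets of phenobarbital through the receptor CAR, passed in neither genotype in the fit of all libraries. Cyp2b9 was 3.01 to 11.43 (median 11.36) in WT oil and 6.64 to 11.44 (median 10.75) in WT CCl4, and 3.85 to 11.59 (median 11.22) in KO oil and 5.64 to 11.13 (median 10.73) in KO CCl4. In the oil groups the 6 libraries with Y-linked genes lay at 3.01 to 6.25 and the other 12 at 10.49 to 11.59. The fitted difference was 1.90 ± 1.28 in WT (limma adjusted p = 0.279) and 0.65 ± 1.21 in KO (adjusted p = 0.748), on the opposite side from the medians. Without the 10 libraries Cyp2b9 fell by 0.75 in WT (adjusted p = 0.00106) and by 0.81 in KO (adjusted p = 0.000119).

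Cyp2b13 was split in the same way, at 3.38 to 4.82 in the 6 libraries with Y-linked genes and 7.21 to 10.50 in the other 12 oil libraries. It was at 0.53 in WT (limma adjusted p = 0.751) and -0.51 in KO (adjusted p = 0.772) over all libraries, and fell by 1.69 (adjusted p = 0.00328) and 1.93 (adjusted p = 0.000257) without the 10. Cyp2b10, the member most used as a readout of CAR, was 3.03 to 6.39 (median 5.17) in WT oil and 4.30 to 7.22 (median 6.35) in WT CCl4, and was at 1.18 in WT (adjusted p = 0.126) and 0.36 in KO (adjusted p = 0.681). It was called higher in WT when only the 2 libraries with low hepatocyte genes were left out (1.42, adjusted p = 0.0279), but not without all 10 (0.73, adjusted p = 0.127). Cyp2b19 and Cyp2b23 had medians of 2.23 to 2.73 in every group and passed in none.

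The split of the oil libraries by Y-linked genes was described for all 42 genes, with no test, since the libraries were set apart by values of these arrays. Against the 11 oil libraries left when KO oil replicate 10 is also set aside, 13 genes lay lower in the 6 with no overlap and 2 higher, against 0.463% and 0.532% of all genes. The 13 were Cyp2a4, Cyp2a5, Cyp2a22, Cyp2b9, Cyp2b10, Cyp2b13, Cyp2c37, Cyp2c38, Cyp2c39, Cyp2c40, Cyp2c68, Cyp2c69 and Cyp2g1, and the 2 were Cyp2d9 and Cyp2f2. With KO oil replicate 10 among the others, 5 stayed lower without overlap (Cyp2a4, Cyp2a22, Cyp2b9, Cyp2b10 and Cyp2b13; background 0.242%), and the same 2 higher (background 0.429%). The medians of the 6 and the other 12 differed by -7.57 for Cyp2b9, -6.38 for Cyp2b13, -3.57 for Cyp2a4, -3.29 for Cyp2c69 and 3.72 for Cyp2d9. Cyp2a12 (-0.11), Cyp2c67 (0.04), Cyp2c70 (0.13) and Cyp2j5 (0.00) differed little. The 6 libraries were 3 of 8 WT oil and 3 of 10 KO oil libraries and 0 of 18 CCl4 libraries, so for these genes the split lies within the oil groups and between oil and CCl4 at once. The 13 genes did not follow 1 pattern after CCl4: in the libraries left without the 10, Cyp2c38 fell by 4.11 in WT and Cyp2b9 by 0.75, while Cyp2b10 was at 0.73 and did not pass.

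**Figure D4:**
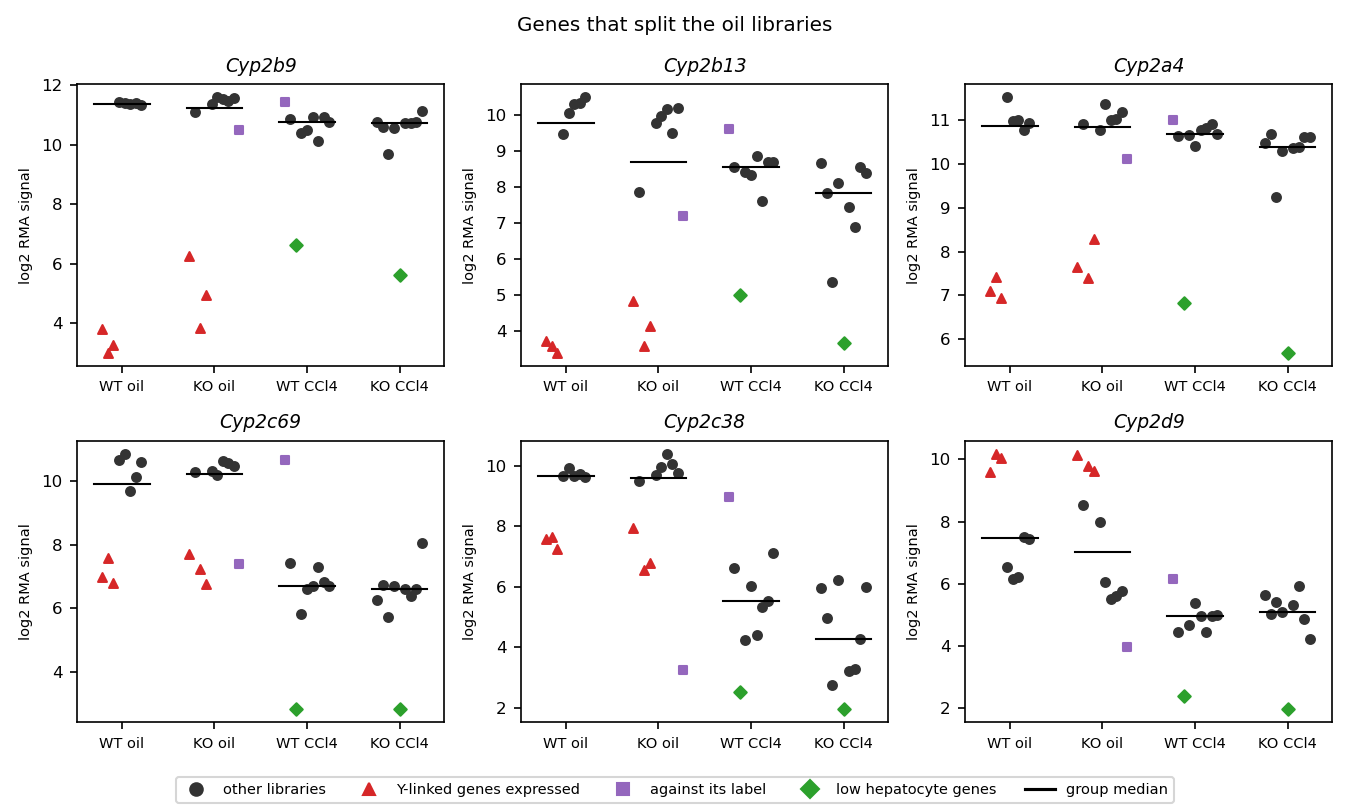
Level (log2 RMA signal, a separate axis for each gene) of Cyp2b9, Cyp2b13, Cyp2a4, Cyp2c69, Cyp2c38 and Cyp2d9, with 1 point per library and the group median as a line. The 6 oil libraries with Y-linked genes (triangles) lie at 3.01 to 6.25 for Cyp2b9 against 10.49 to 11.59 for the other 12, and above all other libraries for Cyp2d9.

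**Figure D5:**
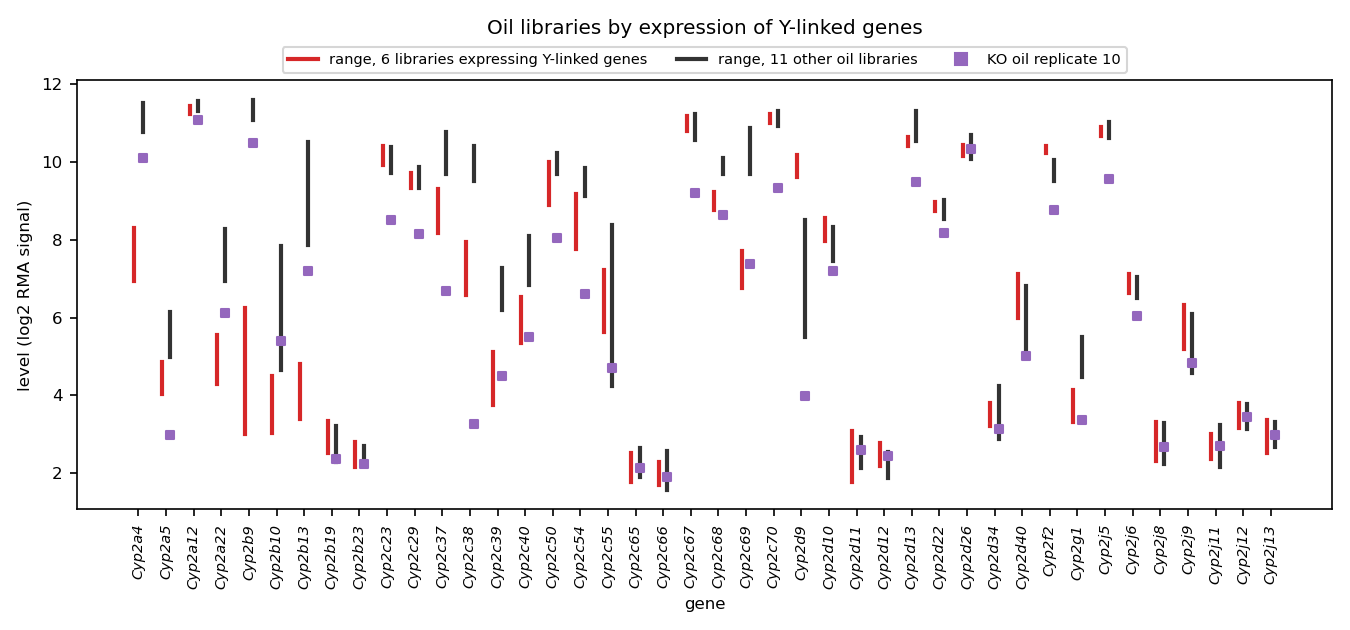
Range of each gene's level (log2 RMA signal) in the 6 oil libraries with Y-linked genes (red) and in 11 other oil libraries (black), with KO oil replicate 10 as a square. The ranges do not meet for 15 genes, 13 lower and 2 higher in the 6.

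The second comparison asked whether loss of Dpt goes with a difference in these enzymes. After oil 0 of the 42 genes were called between KO and WT, against 0.0346% of all genes, and 1 had an unadjusted limma p under 0.05, against 3.78%. After CCl4 0 were called, against 0.0563%, and 2 had an unadjusted p under 0.05, against 8.44%. The same counts of 0 came from every alternative fit. Over the 42 the median difference was -0.05 after oil and -0.14 after CCl4, with all genes at 0.00.

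The smallest adjusted p after CCl4 was that of Cyp2a5, at medians of 4.23 in WT and 3.63 in KO with overlapping groups. Its difference was -0.79 (95% interval -1.47 to -0.10; limma adjusted p = 0.494). Leaving the 10 libraries out gave -0.69 (adjusted p = 0.161). Cyp2j13 was at 0.21 (0.00 to 0.42; adjusted p = 0.59). Cyp2d40 had the smallest p after oil, at -0.55 (-1.10 to -0.01; unadjusted p = 0.0474, adjusted p = 1), and Cyp2j13 was next at -0.20 (-0.41 to 0.01). The precision differed widely between genes: after CCl4 the 95% interval was -0.46 to 0.19 for Cyp2j6 and -0.70 to 0.32 for Cyp2f2, but -2.98 to 0.28 for Cyp2c38 and -2.74 to 2.30 for Cyp2b9. A change of 2-fold was thus inside the interval for Cyp2c38 and Cyp2b9 and outside it for Cyp2j6 and Cyp2f2.

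The third comparison, the interaction, asked whether the CCl4 difference itself differed between KO and WT. It was called for 0 of 42 genes, as for 0% of all genes, and 1 had an unadjusted limma p under 0.05, against 5.85% of all genes. This was Cyp2j13, with a KO minus WT difference of 0.41 (95% interval 0.11 to 0.71; unadjusted p = 0.00862, adjusted p = 0.848), followed by Cyp2c66 at -0.27 (-0.55 to 0.02; adjusted p = 0.864). Cyp2j13 has a low signal: its medians were 3.10, 2.98, 2.86 and 3.07 in WT oil, KO oil, WT CCl4 and KO CCl4. Its mean lay at percentile 20.5 of all genes. After CCl4 6 of its 10 probe sets were lower in WT and 4 in KO. For Cyp2c38 the interaction was -0.86 (-3.17 to 1.46) and for Cyp2c69 -0.55 (-2.75 to 1.65). A 2-fold difference in either direction lay inside both of these intervals. Simulated normal values with each gene's own spread were also fitted, with 200 genes drawn at random from all genes changed. The interaction fit recovered 33% of genes changed by 1.5-fold and 83.5% of genes changed by 2-fold. These rates hold for genes at large and not for the 42.

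Genes that work with these enzymes were read beside them. The background for each list below is the share of all genes. In WT 13.2% were called higher and 11.3% lower, and in KO 13.4% and 9.91%. Without the 10 libraries 10.7% were called lower in WT and 12.1% in KO. Counts of 1 or 2 genes in lists this short are not read as results. Of 13 genes of electron transfer and haem supply, 1 rose and 4 fell in WT, and 1 rose and 6 fell in KO. Hmox1, which breaks haem down, rose by 1.02 ± 0.25 in WT (limma adjusted p = 0.00355) and by 1.66 ± 0.24 in KO (adjusted p = 4.57e-06). Urod, an enzyme of haem synthesis, fell by 0.63 and 0.55, Alad, an earlier step, fell by 0.57 in WT, and Cyb5r3, the reductase of cytochrome b5, fell by 0.43 and 0.54.

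Of 19 transcription factors and growth hormone pathway genes that act on family 2, 1 rose and 5 fell in WT, and 1 rose and 10 fell in KO. Cebpa, a C/EBP factor, fell by 1.77 ± 0.25 in WT (limma adjusted p = 7.81e-06) and by 0.87 ± 0.23 in KO (adjusted p = 0.00586). Ghr, the growth hormone receptor, fell by 1.28 and 1.10, and Cux2, a factor of female liver, by 1.03 and 0.96. Foxa1 and Ppara fell in KO, by 1.14 and 1.07, and were at -0.65 and -0.69 in WT. Without the 10 libraries 11 fell in WT and 14 in KO.

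Of 7 other family 2 genes, 4 fell in WT and 2 in KO. Cyp2e1 fell by 0.82 ± 0.24 in WT (limma adjusted p = 0.0119) and was at -0.60 ± 0.23 in KO (adjusted p = 0.0512), and Cyp2r1, the main vitamin D hydroxylase of liver, fell by 0.81 and 0.74. Of 10 drug enzymes of families 1 and 3, 1 rose and 2 fell in WT, and 1 rose and 3 fell in KO: Cyp1a2, a hepatocyte enzyme of the central zone, fell by 2.20 and 1.77, Cyp3a25 by 1.50 and 1.62, and Cyp1b1, found mainly outside hepatocytes, rose by 1.57 and 1.30. Without the 10 libraries 5 of the 10 fell in WT and 6 in KO. Of 14 sex-biased liver genes outside family 2, 10 fell in each genotype. They included the male genes Slco1a1 (by 5.46 and 5.33) and Elovl3 (by 4.40 and 4.71), and the female gene Sult3a1 (by 3.05 and 3.72), so genes of both kinds fell in the fits of all libraries. The 6 libraries with Y-linked genes all lay in the oil groups. For sex-biased genes, Cux2 included, these sizes therefore mix that split with the difference after CCl4.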

How the data were processed

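Liver RNA of 36 libraries was measured on Affymetrix arrays. The authors deposited a table in log2 units, which RMA had normalized per the submitters' processing notes (version not stated there). It was used, and a second deposited table, with 36 columns that match no library's label, was not. Of 269479 probe sets, 233753 named 1 gene, 5139 several and 30587 none. Old symbols were updated through RefSeq for 2247 symbols, and probe sets of a gene were averaged. Array medians were 4.11 to 4.38. Arrays have no sequencing depth; how many there are sets the precision.

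Groups came from the titles. limma 3.58.1 in R 4.3.3 fitted 1 mean per group over 36 arrays and 23102 genes (lmFit, eBayes; Benjamini-Hochberg; threshold 0.05), and contrasts gave CCl4 against oil, KO against WT and their interaction. No pair of arrays was identical (highest correlation 0.989). In simulated data 200 genes drawn at random from all genes were changed. The WT contrast recovered 71.5% of genes changed by 1.5-fold and 85.5% of those changed by 2-fold, and 10.6% and 8.6% of its calls were false. The text names up to 3 called members of each subfamily per contrast by size and the member of each subfamily with the highest mean. Where none was called it names the 2 members with the smallest adjusted p. Of each pathway list it names up to 3 called genes. Cyp2w1, Cyp3a59 and Hsd3b5 were also picked by that rule and are not described. Further members are given where a count or a split of the libraries rests on them, chosen after their values were seen. The members and lists were chosen with earlier results of these data known. Alternatives changed the probe set summary, array centring, low-value filter, array weights, replicate block and the libraries used. Promoters were aligned globally with Biopython 1.88 and searched for motifs on both strands.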

Additional observations from a re-analysis of the deposited data

Results flagged for a closer look

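For 19 named genes the highest and lowest library of each group were set against the gap to the nearest other library of the group, 76 groups of values in all, and 29 values stood apart by Dixon's 95% criterion; chance alone sets apart about 1 in 20 groups. KO CCl4 replicate 5 was the lowest of its group for 12 genes: Cyp2a12 at 6.97, Cyp2b9 at 5.64, Cyp2c54 at 3.81, Cyp2c69 at 2.83, Cyp2c70 at 6.22, Cyp2d13 at 5.05, Cyp2d22 at 6.58, Cyp2d26 at 5.96, Cyp2d40 at 3.22, Cyp2d9 at 1.98, Cyp2f2 at 7.07 and Cyp2j5 at 4.57. WT CCl4 replicate 3 was the lowest of its group for 11 genes: Cyp2a12 at 7.84, Cyp2b9 at 6.64, Cyp2c54 at 3.22, Cyp2c70 at 5.79, Cyp2d13 at 5.24, Cyp2d22 at 6.71, Cyp2d26 at 6.24, Cyp2d40 at 3.77, Cyp2d9 at 2.41, Cyp2f2 at 7.47 and Cyp2j5 at 4.82. These are the 2 libraries with low hepatocyte markers (means of 8.27 and 8.46), and their part in these values was not tested.

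The library labelled KO oil replicate 10 was the lowest of its group for 5 genes: Cyp2a5 at 3.00, Cyp2c54 at 6.61, Cyp2c70 at 9.33, Cyp2d13 at 9.48 and Cyp2j5 at 9.57. Its Dpt level of 7.40 and its macrophage markers go against its label. WT oil replicate 5 was the highest of its group for Cyp2d13 at 10.96, with the next library at 10.63. No gene was set apart by a difference between KO and WT in its response to CCl4, as the interaction was called for 0 of 42 genes, with 1 of them at an unadjusted limma p under 0.05.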

How the results depend on the processing

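Over the alternatives, 0 members were called between KO and WT after oil, between KO and WT after CCl4, or for the interaction in limma fits. The count called lower after CCl4 in KO was 19 and moved by over 1.5 times once, to 12 with the probe set of highest mean. It was 12 to 21 in WT under the other gene summaries, array centring, low-value filter and array weights (17 as reported), with 1 called higher of 13 with the probe set of highest mean and 1 of 21 with array weights. Without the 7 libraries with pancreatic, muscle or adipocyte markers, 13 fell in WT and 22 in KO, and without the 6 libraries with Y-linked genes 12 and 13. Leaving out 1 library at a time gave 9 to 20 in WT and 15 to 21 in KO, and 0 for the other 3 contrasts. Same-numbered libraries of different groups correlated over 0.1 in 14 of 51 pairs (-0.28 to 0.33). Differently numbered pairs were not set beside them, so this cannot tell whether replicate numbers pair the libraries. The replicate block gave 17 in WT, 23 in KO and 0 elsewhere. Of 30 values named gene by gene, 12 lost their call in at least 1 setting (75 of 1403 values). The sign turned once, for the interaction of Cyp2c66, which was not called, at 0.20 with the probe set of highest mean, against -0.27; the cause was not tested. Probe sets of near-identical genes may share signal.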
